A study of Homo sapiens with 20 samples.

Results

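The TRIM genes encode tripartite motif proteins, most of which are ubiquitin ligases. All genes whose symbol is TRIM followed by digits, with an optional trailing letter, were taken with all of their probes. Under this rule 69 of the 20741 genes named on either array were members, 67 of them on the arrays of the miR-4728-3p experiment with 118 probes and 69 on those of the miR-1 experiment with 119 probes. PML, a tripartite motif gene with a name of its own, was not counted as a member.

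A tripartite motif is a RING finger, 1 or 2 B-box zinc fingers and a coiled coil in that order, and the RING finger recruits a ubiquitin-loaded E2 enzyme so that the protein can pass ubiquitin to its targets. The C-terminal domain differs between members and is used to sort the family into classes, of which the SPRY class is the largest. Many members are best known from innate immunity, where interferon raises their transcription and they bind viral proteins or add ubiquitin to sensors and adaptors of the antiviral pathway.

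The study transfected mimics of human miRNAs into MCF 10A, an immortalized, non-tumorigenic line of human mammary epithelial cells, and read gene expression on Illumina HumanHT-12 BeadChips. In the first experiment 6 arrays of cells given a miR-4728-3p mimic were set against 6 arrays of cells given a non-targeting control, and in the second 4 arrays with a miR-1 mimic against 4 with a non-targeting control. miR-4728-3p is made from an intron of HER2, and miR-1 is a miRNA of muscle that served as a comparison. The question for the TRIM genes was which of them differed between mimic and control, and whether they did so with both mimics. Mimic and control were transfected with a lipid reagent, at 100 nM by the labels, and the methods name a lower dose as well; cells were harvested after 32 h. Every group was the same cell line with no other treatment, and each experiment had its own controls. The column headers name the control as siRNA in the miR-4728-3p experiment and only as control in the miR-1 experiment. The methods list a non-targeting siRNA control. They also list a control oligonucleotide as long as the miR-4728-3p mimic, without saying which arrays received it. The arrays are called biological replicates in the methods, and nothing further says how the cultures were separated.

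The mature miRNAs copied by the mimics are given from RefSeq on GRCh38.p14, with bases 2 to 8, the canonical seed, in capitals. The paper also describes a more internal seed of miR-4728-3p, which is not marked here. The mature miR-4728-3p is 25 bases long and lies at chr17:39726537-39726561 on the plus strand. The mature miR-1-3p has 22 bases and is encoded by MIR1-1 at chr20:62554351-62554372 on the plus strand and by MIR1-2 at chr18:21829015-21829036 on the minus strand. The seeds differ, so the mimics share no canonical seed.
hsa-miR-4728-3p: cAUGCUGAccucccuccugccccag
hsa-miR-1-3p: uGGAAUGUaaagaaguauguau

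Values are log2 intensities after background correction and quantile normalization within each experiment. Only probes brighter on average than the overall median intensity were tested, a limit of 6.36 in the miR-4728-3p experiment and 6.17 in the miR-1 experiment. Each gene was read from its tested probe with the highest mean, and a gene was called at an adjusted p under 0.05 (limma, Benjamini-Hochberg over all tested probes). The median raw intensity of the arrays ran from 101 to 135 in the first experiment and from 92 to 121 in the second. Of the epithelial markers on the arrays all 6 (KRT5, KRT14, CDH3, EGFR, CDH1 and EPCAM) were tested, with control means from 9.15 to 12.50 and from 7.82 to 11.65 in the 2 experiments. Of the 5 blood and endothelial markers on the arrays PTPRC, CD3D and VWF stayed below the limit, while CD14 and PECAM1 passed it. The control mean of CD14 was 10.22 in the first experiment and 9.43 in the second, within the range of the epithelial markers. That of PECAM1 was 6.76 and 6.54, near the limit. None of these markers was called with the miR-4728-3p mimic, and KRT14 (log2 fold change 0.72) and CDH1 (0.49) were higher with the miR-1 mimic.

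In both experiments 46 TRIM genes were tested. Between them 53 of the 69 members were tested at least once, 39 in both experiments and 16 in neither. The 16 untested members were TRIM10, TRIM15, TRIM40, TRIM42, TRIM43B, TRIM46, TRIM48, TRIM49B, TRIM50, TRIM55, TRIM58, TRIM59, TRIM64, TRIM64C, TRIM71 and TRIM74, whose probes had means below the limit over all arrays, so that falls or small rises in them were not detectable here. A probe could pass through a high level in the mimic group alone, and 4 tested TRIM genes in the miR-4728-3p experiment and 1 in the miR-1 experiment had a control mean under the limit. None of the untested TRIM probes was called in either experiment when all probes were tested. Some members have near-identical copies (TRIM16 and TRIM16L, TRIM49 and TRIM49C, TRIM73 and TRIM74), so a probe of one may also have read the other.

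With the miR-4728-3p mimic 7 of the 46 tested TRIM genes rose, 0 were lower and 39 were not called. The genes that rose were TRIM22, TRIM21, TRIM5, TRIM38, TRIM25, TRIM56 and TRIM26, by 1.71-fold to 8.95-fold. Of all 11820 genes tested 3.94% were called higher and 3.8% lower. The median log2 fold change of the tested TRIM genes was 0.03, beside -0.02 for all tested genes. At an unadjusted p under 0.05, 10 TRIM genes were higher and 2 lower. The share of all tested genes at this unadjusted threshold was not counted, so these counts have no background beside them. The RNA came from whole cultures, so more RNA per cell and more cells with the RNA cannot be told apart.

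TRIM22 is an interferon-induced ligase that restricts retroviruses and other viruses. Its mimic arrays had a lowest value of 9.83, a median of 10.47 and a highest of 11.06. The control arrays had 6.96, 7.29 and 7.54. All 6 mimic arrays lay above all 6 control arrays. The mean was 10.42 ± 0.48 (SD, n = 6) with the mimic and 7.26 ± 0.24 (n = 6) without, a log2 fold change of 3.16 (SE 0.168, limma adjusted p = 8.84e-13).

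TRIM21 is a receptor in the cytosol for the constant part of antibodies and marks antibody-coated virus particles for degradation. It lay between 9.14 and 9.84 on the mimic arrays, with a median of 9.53, and between 6.55 and 7.33 on the control arrays, with a median of 7.13. The groups did not overlap, and 1 control array (array 5, at 6.55) stood below the other 5. The log2 fold change was 2.42 (SE 0.138, limma adjusted p = 3.84e-12), a 5.35-fold difference.

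TRIM5 recognizes the capsid of incoming retroviruses. The mimic arrays ran from 10.07 to 10.50 around a median of 10.32 and the control arrays from 8.05 to 8.42 around 8.27. No control array reached a mimic array. The means were 10.30 ± 0.19 and 8.26 ± 0.15 (SD, n = 6 each), and the log2 fold change was 2.04 (SE 0.106, limma adjusted p = 5.84e-13).

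TRIM5 had 4 tested probes, annotated to 3 transcripts, and all 4 were called. In order of falling control mean, the log2 fold changes were 2.04, 1.29, 1.07 and 1.33, and in each case all mimic arrays lay above all control arrays. The probes differed in size of change, and with the mean of all tested probes in place of the brightest one the log2 fold change of TRIM5 was 1.43 (limma adjusted p = 1.96e-10). TRIM5 was the only called TRIM gene with more than 1 tested probe in this experiment.

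**Figure D1:**
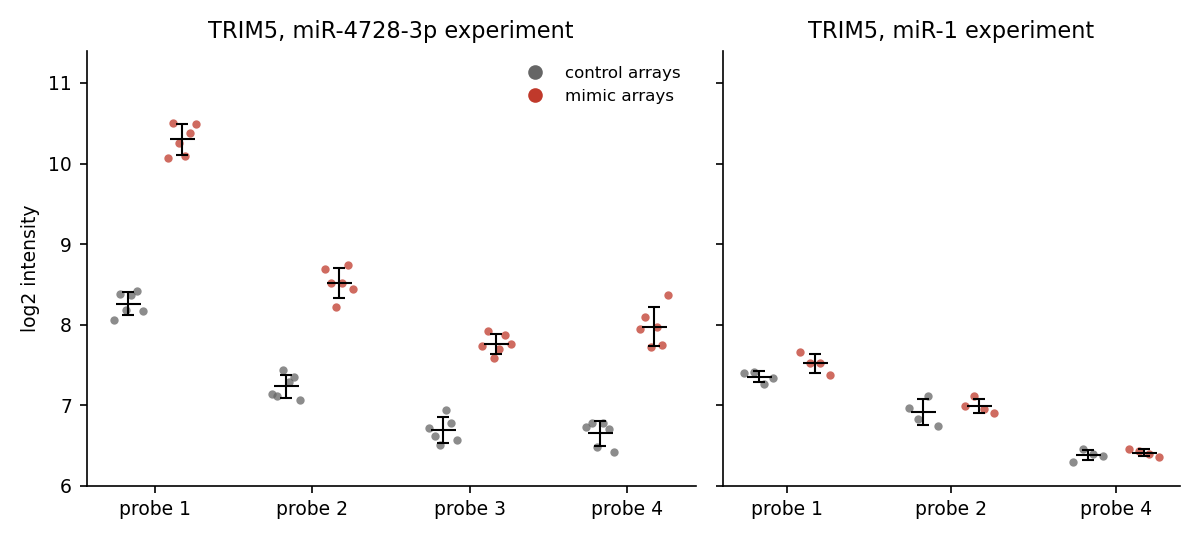
Log2 intensity of each tested TRIM5 probe (x axis, numbered by falling control mean in the miR-4728-3p experiment) on every array of the miR-4728-3p (left, n = 6 per group) and miR-1 (right, n = 4 per group) experiments, with the mean and SD as black bars. All 4 probes were higher on the mimic arrays on the left, and mimic and control arrays overlapped on the right.

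TRIM25 adds ubiquitin to the RNA sensor RIG-I and also acts as a ligase for the ubiquitin-like protein ISG15. Mimic arrays had a lowest value of 9.67, a median of 9.88 and a highest of 10.12, and control arrays 8.46, 8.61 and 8.78. Both groups were tight and clearly apart. The log2 fold change was 1.28 (SE 0.0982, limma adjusted p = 9.76e-10).

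TRIM38, TRIM56 and TRIM26 act on the same antiviral pathways: TRIM38 is known as a regulator of Toll-like receptor and interferon signalling, TRIM56 as a partner of STING and an antiviral factor, and TRIM26 as a ligase that acts on IRF3. TRIM38 ran from 7.89 to 8.51 (median 8.08) with the mimic and from 6.36 to 7.02 (median 6.92) without, a log2 fold change of 1.39 (SE 0.132, limma adjusted p = 5.02e-08). TRIM56 ran from 8.46 to 8.74 (median 8.66) and from 7.14 to 7.77 (median 7.42), a log2 fold change of 1.16 (SE 0.111, adjusted p = 5.70e-08). TRIM26 ran from 9.15 to 9.70 (median 9.40) and from 8.26 to 9.03 (median 8.62), a log2 fold change of 0.77 (SE 0.120, adjusted p = 9.47e-05). For each of the 3 genes the groups did not overlap, and for TRIM26 the gap was narrow, since control array 3 at 9.03 came close to the lowest mimic array at 9.15. In all, 7 TRIM genes had every mimic array above every control array and 0 had every mimic array below, beside 2.94% and 2.64% of all tested genes. These 7 were the called genes.

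**Figure D2:**
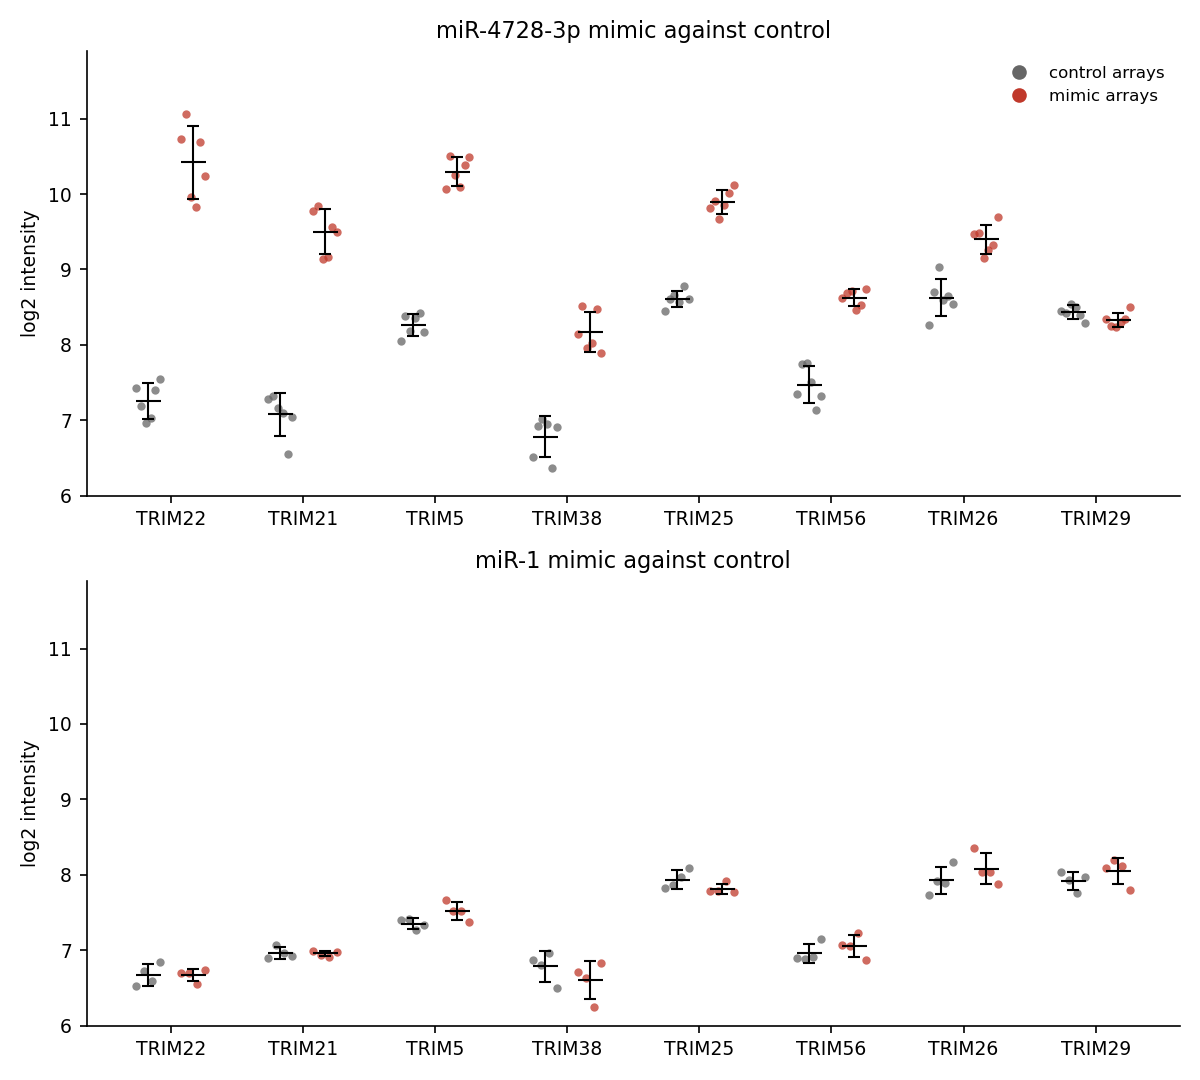
Log2 intensity of the 7 TRIM genes called with the miR-4728-3p mimic and of TRIM29 on every array, in the miR-4728-3p experiment (top, n = 6 per group) and the miR-1 experiment (bottom, n = 4 per group), with the mean and SD as black bars. In the top panel mimic and control arrays of the 7 called genes do not overlap, whereas in the bottom panel they do.

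The 7 genes varied together in part among the 6 mimic arrays. On mimic array 2 all 7 lay above their mimic mean, by 0.24 on average on the log2 scale. On mimic array 4 all 7 lay below it, with an average deviation of -0.23, and on array 3 only TRIM56 lay above it, with an average of -0.21. Other genes followed this order to differing degrees. UBE2L6, the E2 enzyme for ISG15, was highest on array 2 (13.83) and lowest on array 4 (12.65). RIGI, which encodes RIG-I, was highest on array 2 (10.73) and lowest on arrays 3 (9.49) and 4 (9.69), whereas IFIH1, another RNA sensor, was highest on array 2 (12.49) and lowest on arrays 3 (11.16) and 6 (11.17). IRF7 was highest on array 5 (9.13) and lowest on array 4 (8.33), and the epithelial marker EPCAM was lowest on array 2 (10.41) and highest on array 4 (11.01). The raw median of arrays 2 and 4 was 116 and 113, and the part of array quality in these deviations was not tested.

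TRIM29, which lacks a RING finger and is typical of basal epithelia, was well above the limit and showed no such change. It ran from 8.23 to 8.51 (median 8.32) on the mimic arrays and from 8.29 to 8.55 (median 8.44) on the control arrays. The groups overlapped, and the log2 fold change was -0.11 with a 95% interval from -0.30 to 0.08 (limma adjusted p = 0.650).

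The members with the highest control means that were not called were TRIM4 and TRIM44. TRIM4, a SPRY-class ligase, stood at 10.63 ± 0.09 and 10.46 ± 0.11 (SD, n = 6 each), a log2 difference of 0.17 (95% interval -0.02 to 0.36). A dimmer TRIM4 probe, for another transcript, gave -0.26 (limma adjusted p = 0.169), so the 2 probes differed in sign. TRIM44, which carries a ubiquitin-protease-like zinc finger in place of the RING, stood at 10.09 ± 0.26 and 10.02 ± 0.26, a difference of 0.08 (95% interval -0.19 to 0.34).

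TRIM24, TRIM28 and TRIM33 form the class with a PHD finger and a bromodomain and work on chromatin as transcriptional cofactors, TRIM28 as the corepressor of KRAB zinc finger proteins. None of the 3 was called. Their log2 fold changes were -0.10, -0.02 and -0.07, and the 95% intervals ran from -0.34 to 0.14, from -0.24 to 0.20 and from -0.32 to 0.19. All 3 were read well above the limit, with control means of 8.04, 9.57 and 9.07, so a change of the size seen in TRIM26 would lie outside these intervals. The second TRIM33 probe gave -0.27 (limma adjusted p = 0.184).

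All 39 uncalled members had log2 fold changes between -0.29 (TRIM7) and 0.32 (TRIM69), with SEs between 0.0908 and 0.167. TRIM7, TRIM69, TRIM14, TRIM13 and TRIM45 reached an unadjusted p under 0.05 without passing the adjustment. TRIM13, a ligase anchored in the endoplasmic reticulum, had probes that differed in sign, at 0.26, -0.15 and -0.29, none of them called.

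**Figure D3:**
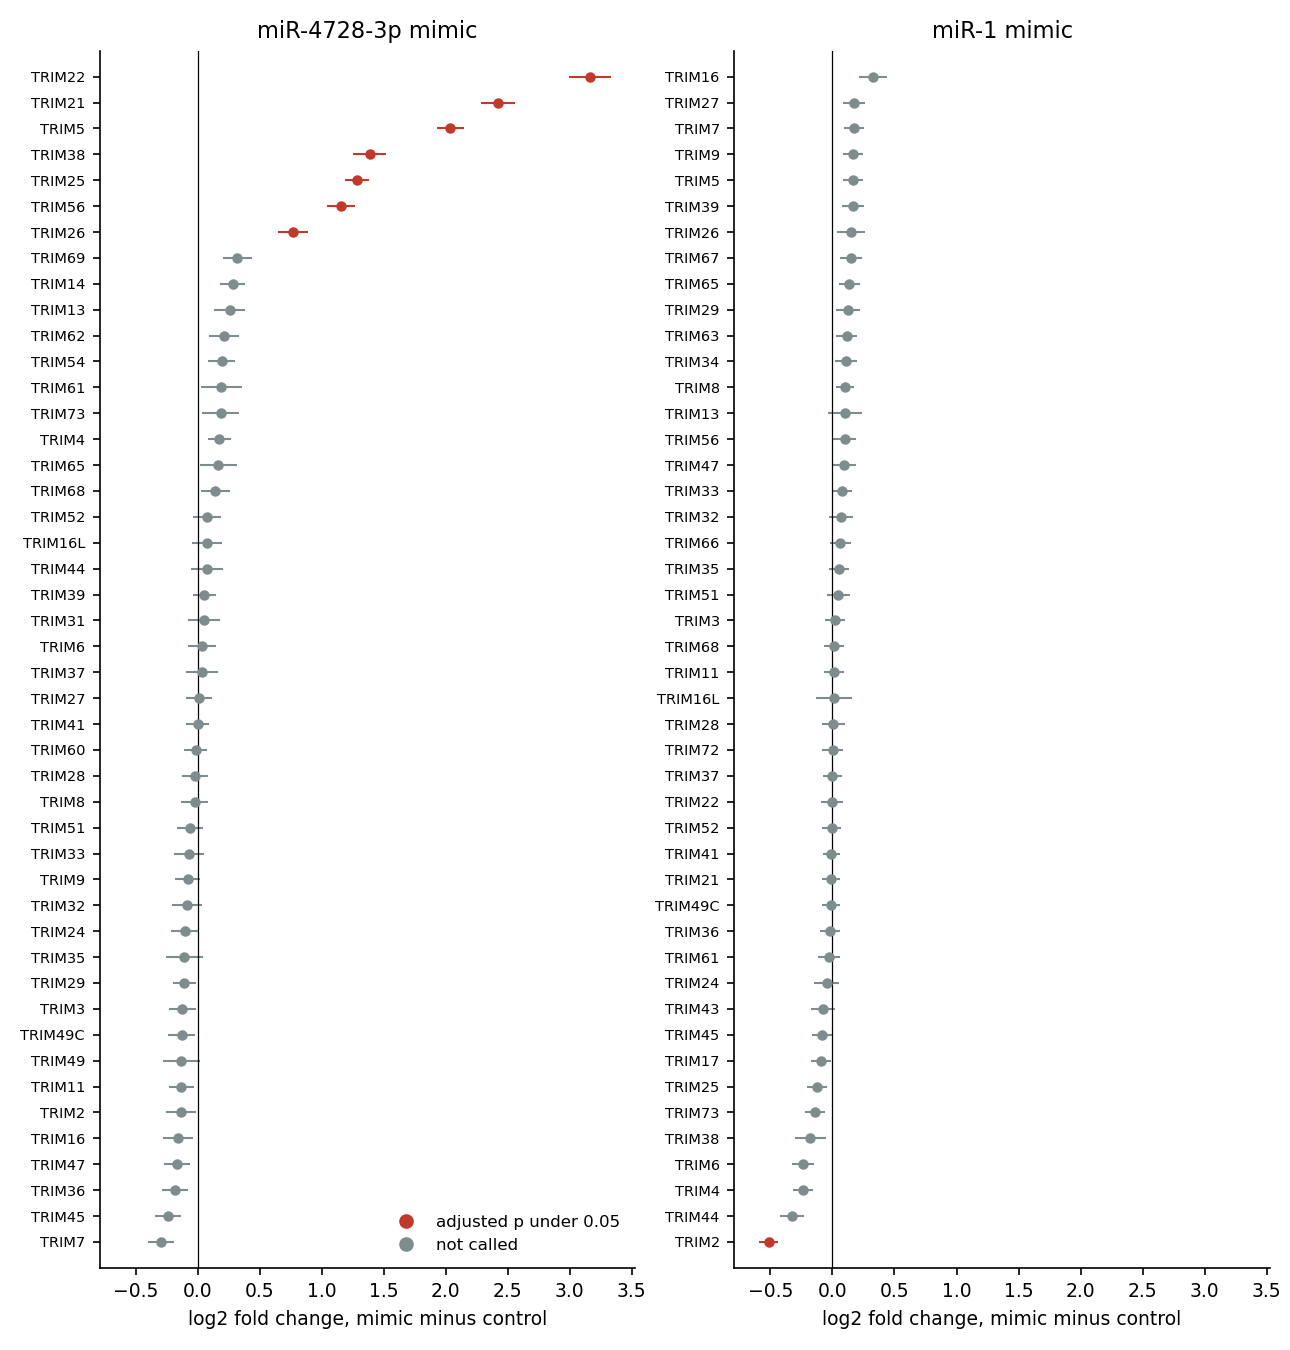
Log2 fold change, mimic minus control, of the 46 TRIM genes tested with the miR-4728-3p mimic (left) and the 46 tested with the miR-1 mimic (right), sorted by value. Bars are SEs and red marks an adjusted p under 0.05, which 7 genes reached on the left, all higher, and TRIM2 on the right, lower.

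Sorted by what the members are known for, the change lay in the interferon-inducible TRIM genes. Of 11 such genes 10 were tested with the miR-4728-3p mimic and 7 rose, with a median log2 fold change of 1.22, beside -0.02 for all tested genes. This list was drawn up with earlier results of these data known and is no independent evidence. The 3 that were tested and not called were TRIM14 (0.28, limma adjusted p = 0.108), TRIM69 (0.32, adjusted p = 0.134) and TRIM6 (0.04, adjusted p = 0.931). Without mimic array 3 TRIM69 was called as well (0.40, limma adjusted p = 0.0376), and under its other alternatives and left-out arrays the adjusted p ran up to 0.348. Its other tested probe read 0.02 (limma adjusted p = 0.97). TRIM14 was read near the limit of 6.36, with a control mean of 6.45. The TRIM69 control mean of 6.29 was under the limit, and TRIM69 was tested only through its higher mimic mean of 6.61. TRIM34 was not tested, because the means of its 3 probes were all below the limit. Of the 36 tested members outside the list 0 were called, and their log2 fold changes ran from -0.29 to 0.26 around a median of -0.02. Among all tested genes 3.94% were called higher and 3.8% lower, so for so few genes 0 calls outside the list are near the background.

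By C-terminal class, 6 of the 21 tested members sorted into the SPRY class rose (TRIM5, TRIM21, TRIM22, TRIM25, TRIM26 and TRIM38). The class median was 0.14. This class as sorted here left out TRIM14 and TRIM16, sorted with the members without a RING finger, and TRIM16L, TRIM49C and TRIM51. None of these was called, and the class count and median therefore do not cover every tested SPRY protein. Of all tested genes 3.94% were called higher and 3.8% lower. TRIM56 was 1 of 6 tested members without a further C-terminal domain, and the other 5 were not called. Of the 3 tested members with NHL repeats (TRIM2, TRIM3 and TRIM32) and the 4 tested members without a RING finger (TRIM14, TRIM16, TRIM29 and TRIM44) 0 were called. For so few genes this is near the share of all tested genes. By place in the genome, 3 of 6 tested members near the end of the short arm of chromosome 11 rose, namely TRIM5, TRIM21 and TRIM22, while TRIM6, a neighbour of TRIM5 there, was at 0.04 with a 95% interval from -0.19 to 0.27. Of the 5 tested members in or near the MHC region on chromosome 6, TRIM26 and TRIM38 rose, and TRIM27, TRIM31 and TRIM39 had log2 fold changes of 0.01, 0.05 and 0.05.

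**Figure D4:**
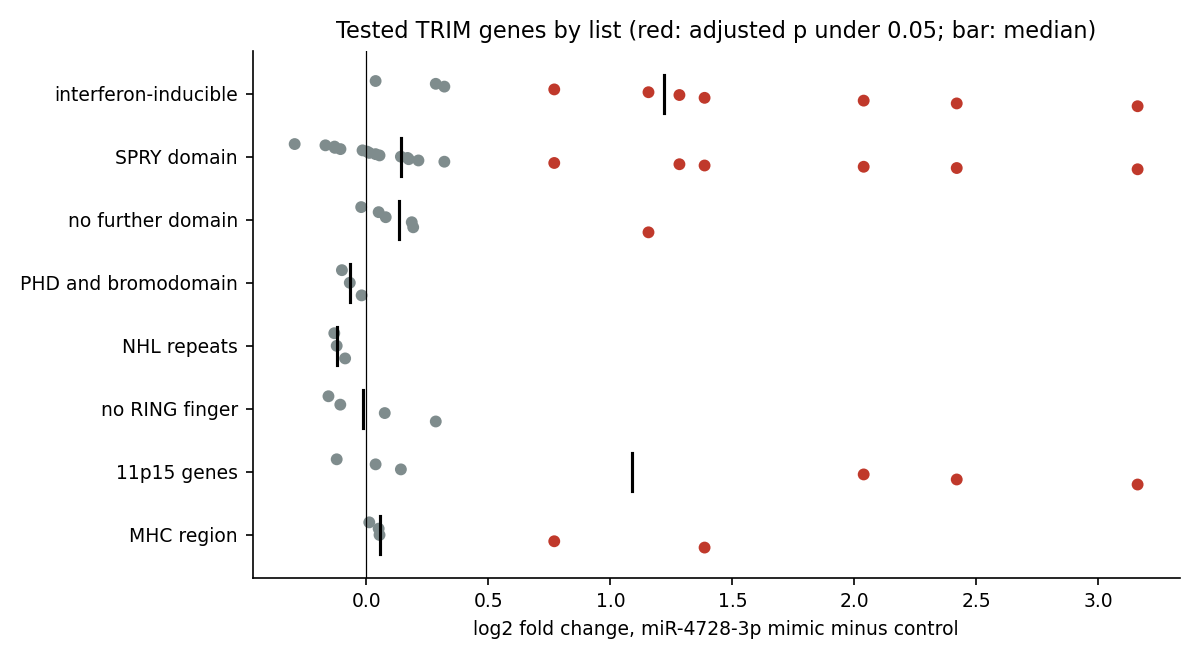
Log2 fold change, miR-4728-3p mimic minus control (x axis), of each tested TRIM gene by list (rows; a gene may stand in several), with called genes in red, uncalled genes in grey and the list median as a bar. All 7 called genes stand in the interferon-inducible list, and TRIM56 is the called gene that is not in the SPRY class.

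Promoters of the members were read for the word GAAANNGAAA on either strand, the core of the interferon-stimulated response element. RefSeq promoters on GRCh38.p14, from 250 bases before to 50 after each gene start, were given for 53 members, and TRIM22 had none. The word occurred in 3.57% of all 35116 promoters, and 10 of the 53 members had it in at least 1 of their 72 promoters, a share of members that cannot be set directly against the share of promoters. Of the 6 genes that rose and had an entry, TRIM5, TRIM21 and TRIM26 held the word, and TRIM25, TRIM38 and TRIM56 did not hold it in this window. Of the 27 tested and uncalled members with an entry 5 held it, namely TRIM14 and TRIM69 of the interferon-inducible list and TRIM2, TRIM16 and TRIM44 outside it. TRIM34 and TRIM64C, not tested in this experiment, held it too. The match is a description of letters only, and binding was not measured.

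The windows of 30 bases around the word are printed on the strand of the gene, with the word or overlapping words in capitals, to show that it stood in genes that rose (the first 3), in listed interferon-inducible genes that were not called or not tested (the next 3), and in genes outside that list that were not called (the last 3). In TRIM21 and TRIM26 2 words overlapped. The windows lie at chr11:5685082-5685111 (minus strand) for TRIM5, chr11:4393663-4393692 (minus) for TRIM21, chr6:30213578-30213607 (minus) for TRIM26, chr9:98119229-98119258 (minus) for TRIM14, chr15:44736456-44736485 (plus) for TRIM69, chr11:5624901-5624930 (plus) for TRIM34, chr4:153151936-153151965 (plus) for TRIM2, chr17:15683012-15683041 (minus) for TRIM16 and chr11:35662730-35662759 (plus) for TRIM44.
TRIM5: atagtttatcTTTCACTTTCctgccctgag
TRIM21: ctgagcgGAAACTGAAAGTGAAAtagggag
TRIM26: cgcctgaTTTCAGTTTCCATTTCgctgccc
TRIM14: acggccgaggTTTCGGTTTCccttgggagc
TRIM69: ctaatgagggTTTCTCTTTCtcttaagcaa
TRIM34: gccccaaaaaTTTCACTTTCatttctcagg
TRIM2: aataaatagaGAAAAGGAAAtaagccgaag
TRIM16: acagaggtaaGAAATAGAAAtaaagggtcc
TRIM44: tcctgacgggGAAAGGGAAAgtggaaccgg

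Partners of the TRIM ligases were read in the same experiment. RIGI, the substrate of TRIM25, stood at 10.03 ± 0.44 with the miR-4728-3p mimic and 6.63 ± 0.13 without (SD, n = 6 each), a log2 fold change of 3.39 (limma adjusted p = 2.34e-14). IFIH1, which encodes the RNA sensor MDA5, rose by 3.22, IRF7, a transcription factor of the interferon response, by 2.36, STING1, which encodes the adaptor STING, by 0.85 and ZC3HAV1, which encodes an antiviral protein that works with TRIM25, by 0.37 on the log2 scale. These were 5 of 16 tested signalling partners, 0 were lower, and the list median was 0.15, beside -0.02 for all tested genes. Of all tested genes 3.94% were called higher and 3.8% lower. The lists of partners were chosen with earlier results of these data known. Of 9 tested E2 enzymes only UBE2L6, the E2 enzyme for ISG15, was called, with 13.20 ± 0.44 against 10.02 ± 0.16, a log2 fold change of 3.18 (limma adjusted p = 1.20e-13). UBE2N, an E2 enzyme that builds the ubiquitin chains linked to TRIM5 and TRIM25 signalling, was at -0.32 (adjusted p = 0.117). Of 5 tested tripartite or TRIM-like genes with other names 0 were called, and PML was at 0.35 (adjusted p = 0.0534).

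With the miR-1 mimic 0 of the 46 tested TRIM genes were higher, 1 was lower and 45 were not called. Of all 11899 genes tested 1.45% were called higher and 1.24% lower, so 1 member of 46 is near the background. The median log2 fold change of the members was 0.01, beside -0.01 for all tested genes. At an unadjusted p under 0.05, 2 TRIM genes (TRIM16 and TRIM7) were higher and 4 (TRIM2, TRIM44, TRIM4 and TRIM6) lower. For these counts too the share of all tested genes at the unadjusted threshold was not counted.

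The gene that fell was TRIM2, a ligase with NHL repeats that is known from neurons, where it acts on neurofilament light chain. Its 4 mimic arrays had 7.24, 7.31, 7.35 and 7.41, and its 4 control arrays 7.71, 7.86, 7.84 and 7.97. All mimic arrays lay below all control arrays. The means were 7.33 ± 0.07 and 7.84 ± 0.10 (SD, n = 4 each), and TRIM2 fell by 0.51 on the log2 scale (SE 0.0793, limma adjusted p = 0.00342), which is 1.43-fold lower. With the miR-4728-3p mimic the same probe gave -0.13 (limma adjusted p = 0.679), and its groups overlapped.

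TRIM44, TRIM4 and TRIM6 also had every miR-1 mimic array below every control array without a call. With TRIM2 these were 4 genes, and 0 had every mimic array above, beside 5.73% and 5.02% of all tested genes. TRIM44 had 8.56, 8.51, 8.57 and 8.19 with the mimic and 8.76, 8.79, 8.64 and 8.92 without (log2 fold change -0.32, 95% interval -0.53 to -0.12, limma adjusted p = 0.126). TRIM4 had 9.57, 9.54, 9.71 and 9.45 against 9.80, 9.73, 9.82 and 9.87 (-0.24, adjusted p = 0.182). TRIM6 stood at -0.24 (adjusted p = 0.257). In none of the 3 was the gap to the control arrays large against the spread within the groups.

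TRIM16, a SPRY protein without a RING finger, had 2 tested probes with log2 fold changes of 0.33 and 0.34 (limma adjusted p = 0.222 and 0.121). On the brighter probe the mimic arrays had 6.79, 6.72, 6.76 and 6.27 and the control arrays 6.34, 6.23, 6.16 and 6.50. Mimic array 4 lay among the controls. Without it the log2 fold change was 0.45 and the gene was called (limma adjusted p = 0.0242), and it was also called when its probes were averaged (0.33, adjusted p = 0.0349).

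**Figure D5:**
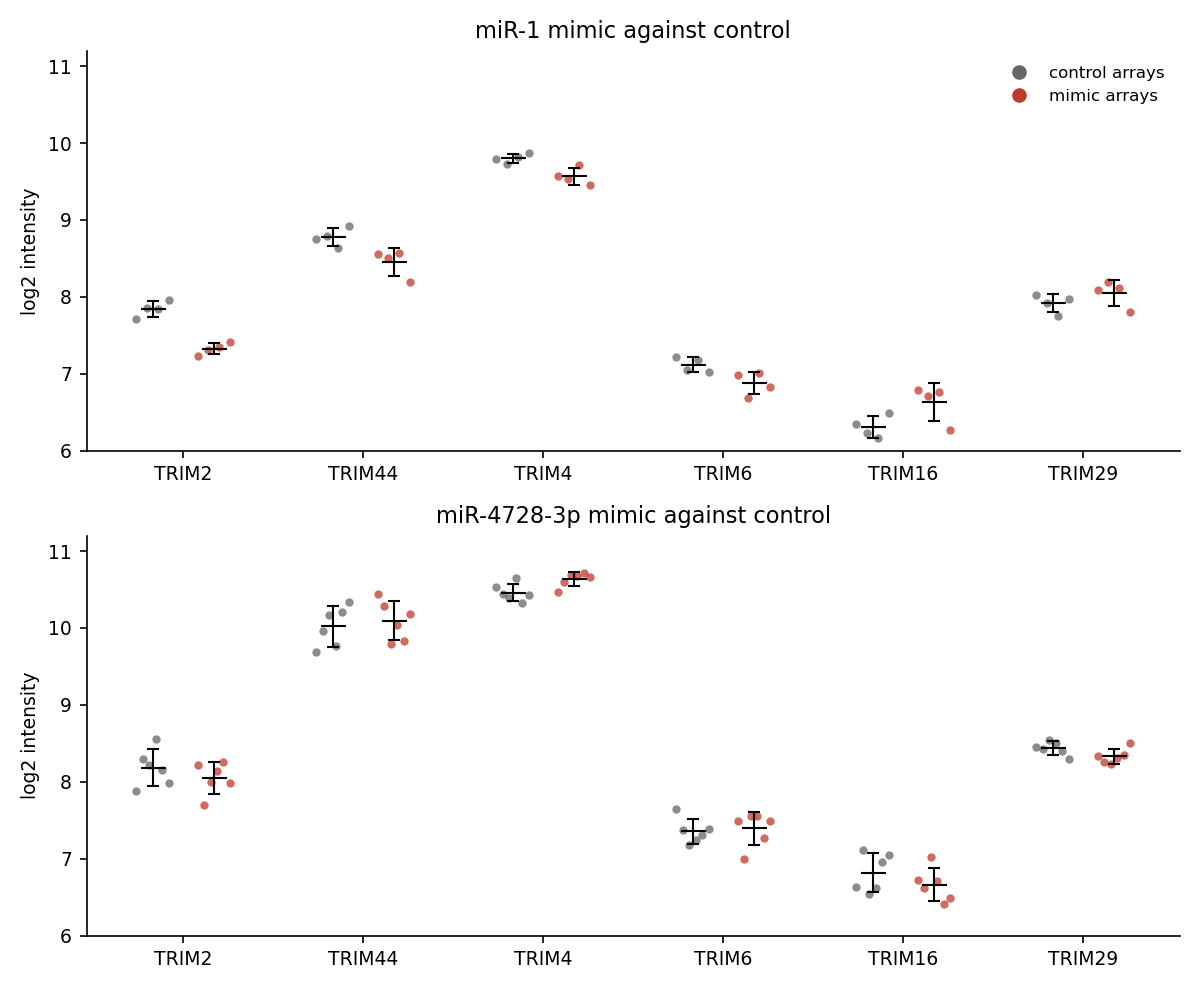
Log2 intensity of TRIM2, TRIM44, TRIM4, TRIM6, TRIM16 and TRIM29 on every array of the miR-1 experiment (top, n = 4 per group) and the miR-4728-3p experiment (bottom, n = 6 per group), with the mean and SD as black bars. In the top panel the mimic arrays of the first 4 genes lie below the control arrays, and mimic array 4 of TRIM16 lies among its controls.

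The 7 genes that rose with the miR-4728-3p mimic were all tested with the miR-1 mimic and none was called. TRIM22 had 6.69, 6.69, 6.55 and 6.74 with the miR-1 mimic and 6.52, 6.73, 6.59 and 6.85 without, a log2 fold change of -0.0042 (95% interval -0.19 to 0.18). TRIM21 was at -0.0099, TRIM25 at -0.13, TRIM38 at -0.18, TRIM5 at 0.17, TRIM56 at 0.10 and TRIM26 at 0.15. Mimic and control arrays of each of these genes overlapped. TRIM29 was at 0.13 on its brighter probe and 0.23 on the other (limma adjusted p = 0.664 and 0.315). TRIM28, TRIM24 and TRIM33 were at 0.0067, -0.05 and 0.08. TRIM7, the uncalled member with the highest control mean after TRIM4, had 9.47, 9.52, 9.33 and 9.47 with the mimic and 9.38, 9.24, 9.33 and 9.15 without, a log2 fold change of 0.17 (adjusted p = 0.388). Of the 9 tested interferon-inducible TRIM genes, the 17 tested signalling partners and the 9 tested E2 enzymes 0 were called. Of all tested genes 1.45% were called higher and 1.24% lower, so 0 calls in lists of this size are near the background.

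Whether the change differed between the mimics was tested on the 39 TRIM genes whose probe was tested in both experiments, as the log2 fold change with the miR-4728-3p mimic minus that with the miR-1 mimic. Of these 8 were called with a higher change under the miR-4728-3p mimic and 0 with a lower one, beside 3.06% and 2.96% of 10246 genes. The difference was 3.17 for TRIM22 (limma adjusted p = 3.58e-11), 2.43 for TRIM21, 1.87 for TRIM5, 1.56 for TRIM38, 1.41 for TRIM25 and 1.06 for TRIM56, each with an adjusted p of 3.06e-05 or less. These 6 differences kept their call whichever array was left out (limma adjusted p up to 0.000214). TRIM26 (0.62, adjusted p = 0.0396) and TRIM4 (0.41, adjusted p = 0.0496) passed the threshold narrowly. TRIM4 was called in neither experiment alone, and its dimmer probe had the opposite sign in this contrast (-0.17, limma adjusted p = 0.673). A TRIM13 probe that does not stand for the gene gave -0.50 (adjusted p = 0.0300), and the brighter TRIM13 probe was not called. TRIM2 did not pass (0.38, adjusted p = 0.230), so its lower level with the miR-1 mimic was not shown to be particular to that mimic.

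Calls of TRIM26 and TRIM4 in this contrast depended on single arrays. The TRIM26 call was lost without 12 of the 20 arrays (adjusted p up to 0.127) and held without miR-4728-3p mimic array 3, 4 or 5, miR-4728-3p control array 2, 3 or 5, miR-1 control array 1 or miR-1 mimic array 1. The TRIM4 call was lost without 16 of the 20 (adjusted p from 0.0531 to 0.125) and held without miR-4728-3p mimic array 1, miR-4728-3p control array 1 or 4, or miR-1 mimic array 3. The TRIM13 probe lost its call without miR-4728-3p control array 2, miR-1 control array 2 or 3, or miR-1 mimic array 1, 2 or 4 (adjusted p from 0.0514 to 0.0785). TRIM7, a SPRY-class ligase, just missed the threshold with a difference of -0.47 (limma adjusted p = 0.0518), and it passed without miR-4728-3p mimic array 3, 4 or 6 or miR-4728-3p control array 5 or 6 (adjusted p from 0.0310 to 0.0485). The experiments ran on different versions of the array and with separate controls, so the mimic, the experiment and the array version cannot be told apart in this contrast.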

How the data were processed

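Total RNA of MCF 10A cells was hybridized to Illumina HumanHT-12 arrays, version 3 for the miR-4728-3p experiment and version 4 for the miR-1 experiment by the methods. The authors deposited non-normalized intensity values per probe, without detection p-values, and normalized intensity values from the BASE server, with the normalization method not given in the sources used here. The non-normalized intensities were used here, with the deposited normalized intensities as an alternative. Each table was background-corrected (normexp, offset 50), quantile-normalized and log2-transformed in R 4.3.3 with limma 3.58.1, one experiment at a time. Intensities near background are compressed by the offset, so fold changes of dim probes are understated. Of 48803 and 47323 probes, 20919 and 22031 were brighter on average than the overall median and were tested with lmFit and eBayes, mimic against control (6 against 6 and 4 against 4). P-values were adjusted by Benjamini-Hochberg over all tested probes and called at 0.05. The number of arrays limits the precision. The contrast between mimics used the 17097 probes tested in both experiments.

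Probes were named from GEO's platform annotation, with symbols brought up to date by RefSeq gene ID. A single gene name was given for 27578 and 30113 probes, several for 13 and 8, and none for the rest, which are unnamed here. The procedure was tested on simulated data. Of 100 probes given a log2 change of 0.5, 48 were called in the miR-4728-3p setting and 51 in the miR-1 setting. With a log2 change of 1 it was 76 and 81 of 100. Beside them 10 and 8 unchanged probes were called. Changes of the smaller size could thus often be missed. The TRIM genes, the lists and the tests were chosen with earlier results of these data known. Named genes were every TRIM gene called with any probe or in the contrast, TRIM21, TRIM22, TRIM25, TRIM29, TRIM24, TRIM28 and TRIM33, and the 2 uncalled members with the highest control mean in each experiment. Other genes named for a small count, TRIM16 and TRIM69 were chosen after their values were seen. Alternatives were another or no background correction, the deposited normalized values, no filter or a filter at the 75th percentile, the mean of a gene's probes, a trended robust fit, array weights, the replicate number as a block, and leaving out each array. Target sites in 3′ UTRs were not analysed here. Figures were drawn with Python 3.11.15, pandas 2.3.3 and matplotlib 3.10.9.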

Additional observations from a re-analysis of the deposited data

Results flagged for a closer look

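The change differed between the mimics for 8 TRIM genes, each read from its brightest probe, by the limma test of the difference. It was 3.17 for TRIM22, 2.43 for TRIM21, 1.87 for TRIM5, 1.56 for TRIM38, 1.41 for TRIM25, 1.06 for TRIM56, 0.62 for TRIM26 and 0.41 for TRIM4 on the log2 scale, higher with the miR-4728-3p mimic in each. The dimmer TRIM4 probe was not called and had the opposite sign, at -0.17 (limma adjusted p = 0.673). A second probe of TRIM13 differed the other way, by -0.50.

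In 5 of 64 groups of arrays of 16 named genes 1 array lay apart from the rest, where chance flags about 1 group in 20. The gap to the nearest array was 0.638 of the group's range for TRIM21 (miR-4728-3p control array 5, 6.55 against 7.05 to 7.33) and 0.681 for TRIM24 (miR-4728-3p control array 1, 7.64 against 8.04 to 8.22). In the miR-1 experiment it was 0.886 for TRIM13 (mimic array 4, 8.33 against 7.64 to 7.72), 0.900 for TRIM25 (mimic array 3, 7.91 against 7.77 to 7.78) and 0.915 for TRIM56 (control array 4, 7.15 against 6.88 to 6.90).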

How the results depend on the processing

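The 7 TRIM genes called higher with the miR-4728-3p mimic and TRIM2 with the miR-1 mimic kept their call and direction under every alternative run and without any 1 array. Under these the log2 fold change ran from 2.86 to 3.49 for TRIM22, from 2.12 to 2.78 for TRIM21, from 1.43 to 2.17 for TRIM5, from 1.12 to 1.75 for TRIM38 and from -0.63 to -0.43 for TRIM2. The count of TRIM genes higher with the miR-4728-3p mimic ran from 7 to 8 without any 1 array, and the 8 included TRIM69, called without mimic array 3. The count of TRIM genes higher with the miR-1 mimic was 0, and 1 (TRIM16) with the mean of all tested probes; without any 1 array it ran from 0 to 1, the 1 being reached without mimic array 4. The count of TRIM genes whose difference depends on the mimic was 8, ran from 6 to 9 under the alternatives, and lost TRIM26 and TRIM4 with an offset of 16, without a filter and with the replicate block. TRIM7 joined it without background correction (-0.44, adjusted p = 0.0324), with the deposited normalized values and with the filter at the 75th percentile (TRIM22 and TRIM38 were not tested under that filter in the contrast).

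The labels do not say whether same-numbered mimic and control arrays were pairs. Their deviations from the group means correlated at -0.12 to 0.06 (miR-4728-3p) and -0.39 to 0.04 (miR-1). With so few arrays this cannot settle the pairing. With the replicate number as a block, 7 TRIM genes were higher and 0 lower with the miR-4728-3p mimic, 0 higher and 1 lower with the miR-1 mimic, and 6 differed between the mimics. Without detection p-values, the lowest probes could not be told from background, and falls or small rises of the 16 untested members were not detectable.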
